A study of Mus musculus with 12 samples.

Results

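Cells labelled as muscle stem cells, from uninjured hind limb muscle, were compared between mice with a Sestrin1,2 knockout and wild-type mice. The comparison used 4 of the 12 RNA sequencing libraries of the study. Transcripts of other cell types were abundant in these libraries, as given below. The 4 libraries were chosen by their labels, 2 knockout and 2 wild type, all taken before injury (day 0 here). Both genotypes were C57BL/6J mice of 2 to 3 months of age, and the cells were sorted by flow cytometry from tibialis anterior, gastrocnemius and quadriceps muscle. The remaining libraries come from the same genotypes, 2 per genotype, at 7 and 21 days after injury, and of these the day 7 libraries are used below for comparison. The labels describe the knockout only as Sestrin1,2, without the alleles or a Cre driver, so whether the loss is limited to 1 cell type cannot be read from them. They name no antibodies for the sort, no sex, no batch, no hour of collection, and do not say whether the 2 libraries of a group came from separate animals. P-values below therefore measure the spread between these libraries, which may be technical.

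Sestrins are proteins that cells make under stress and that hold back mTORC1, the kinase complex that couples amino acid supply to growth, through the GATOR complexes. Muscle stem cells, also called satellite cells, lie under the sheath of the muscle fibre, rest for long periods and are marked by the transcription factor Pax7. In rest they divide rarely, use fatty acid oxidation, and keep genes of muscle differentiation low. The comparison at day 0 asks which genes differ when the Sestrins are missing and no injury has been made.

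Sesn2 and Sesn1, the targeted genes, were lower in the libraries labelled knockout. Sesn2 (ENSMUSG00000028893, GRCm38 chromosome 4, 132492032 to 132510501) stood at 5.66 and 7.26 CPM (counts scaled to library size) in the knockout libraries, against 78.3 and 88.6 CPM in wild type. The groups lay far apart, with a log2 fold change of -3.70 (SE 0.14, edgeR adjusted p 6.35e-06). Sesn1 (ENSMUSG00000038332, chromosome 10, 41809935 to 41908424) stood at 47.6 and 47.3 CPM in knockout and at 73.4 and 72.0 CPM in wild type, a log2 fold change of -0.62 (SE 0.12, edgeR adjusted p 0.00468). Sesn1 reads thus remained at a substantial level in the libraries labelled knockout. Sesn3, the third member of the family, was low in all 4 libraries (1.64 and 2.40 CPM against 2.02 and 2.44 CPM) and was not called (log2 fold change -0.15, SE 0.27, edgeR adjusted p 0.692). When the day 21 libraries were added to the fit, all 12 libraries shared 1 estimate of the spread. Neither Sesn2 nor Sesn1 was then called at day 0 (edgeR adjusted p 0.0580 and 0.144), with log2 fold changes of -3.68 and -0.60, close to those above. Sesn2 goes against the labels of some of the added day 21 libraries, and these enter the shared estimate.

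Total estimated counts lay between 28396780 and 37404932 per day 0 library, and between 17292 and 17559 genes were detected. The Pearson correlation of log2 CPM across genes, which are not independent replicates, was 0.983 within each genotype and 0.934 to 0.942 between the genotypes. At an edgeR adjusted p under 0.05, 6091 of the 15672 genes tested were called, which is 38.9%, with 3054 higher (19.5%) and 3037 lower (19.4%) in knockout. The count was 3522 without knockout replicate 2, 3668 without wild-type replicate 1, 3906 without wild-type replicate 2 and 4407 without knockout replicate 1. It was 4356 with all 12 libraries, 2350 higher and 2006 lower. At day 7 the same fit called 1169 genes (7.46%), 752 higher (4.80%) and 417 lower (2.66%), and the genotype difference itself differed between the days in 3887 genes (24.8%), being more positive at day 0 in 1875 (12%) and more negative in 2012 (12.8%). Counts for gene lists below are to be read against these shares. The count over all genes was smaller without any 1 day 0 library. List counts from such fits are to be read with that in view.

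The sort was checked against markers of muscle stem cells and of the other cells of the tissue. Pax7, the defining factor of satellite cells, was present in every library, at 10.5 and 14.3 CPM in knockout and at 25.5 and 28.6 CPM in wild type, and was lower in knockout (log2 fold change -1.12, SE 0.16, edgeR adjusted p 0.00108). Vcam1, an adhesion protein used to sort these cells, stood at 147 and 139 CPM against 325 and 322 CPM (log2 fold change -1.18, SE 0.07, edgeR adjusted p 2.55e-05). Myf5, a muscle lineage factor, stood at 19 and 19.6 CPM against 37.9 and 36.9 CPM (log2 fold change -0.95, SE 0.09). Itga7, the laminin receptor of muscle cells, did not follow them, with 213 and 187 CPM in knockout and 186 and 197 CPM in wild type (log2 fold change 0.06, edgeR adjusted p 0.733). Of the 10 markers of the list, 7 were lower in knockout and none higher, or 9 lower with the length offset described below. With an offset for length and GC content 10 were lower, Itga7 among them (log2 fold change -0.33, edgeR adjusted p 0.0331). The summed level of the list was 509 and 476 TPM (a level that also corrects for gene length) in knockout against 711 and 708 TPM in wild type.

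Transcripts of other cell types were abundant in both genotypes. The 12 markers of fibro-adipogenic progenitors, the connective tissue cells of muscle, summed to between 9403 and 9991 TPM per day 0 library, well above the sum of the stem cell markers, with decorin (Dcn) and gelsolin (Gsn) among them. Of these 12 markers 7 were lower and 2 higher in knockout, or 6 lower and none higher with the length offset described below, and 3 lower and none higher with all 12 libraries, where Dcn and Gsn lost their calls (edgeR adjusted p 0.315 and 0.485). Gsn, a higher one, also lost its call without knockout replicate 2 or either wild-type library. Dpt, dermatopontin, stood at 21.6 and 20.6 CPM against 60.1 and 60.2 CPM (log2 fold change -1.51, SE 0.09). The 10 markers of pericytes and smooth muscle summed to 8510 and 8564 TPM in knockout and to 5595 and 5605 TPM in wild type. Smooth muscle actin (Acta2) stood at 10438 and 10544 CPM in knockout and 7288 and 7399 CPM in wild type, and smooth muscle myosin (Myh11) at 2109 and 2263 CPM against 1128 and 1134 CPM. Of these 10 markers 5 were higher and 1, Rgs5, was lower in knockout, a call lost without either knockout library or wild-type replicate 1, and with all 12 libraries (edgeR adjusted p 0.0620). Glial markers summed to 3871 and 3800 TPM in knockout and to 3329 and 3379 TPM in wild type. Of these 10 markers 2 were higher and none lower, with a median log2 fold change of 0.03. The macrophage list summed to 3521 and 3414 TPM against 2038 and 2054 TPM, almost wholly through lysozyme (Lyz2), while Csf1r, C1qa and Tyrobp were at most 1.38 CPM in every day 0 library. The call of Lyz2 as higher was lost without any 1 of the 4 libraries and with all 12 (edgeR adjusted p 0.0612). Markers of T, B and natural killer cells (14) and of neutrophils (9) summed to under 3 TPM, with Cd3e and Ly6g at 0 counts in all 4 libraries. No endothelial marker of 12 was called (1 was lower by DESeq2, and 1 higher with all 12 libraries), and their sums were alike (562 to 568 TPM against 561 to 576 TPM). In bulk libraries a larger share of cells of a type and more RNA per cell cannot be told apart, and the part of these other cells in the gene differences below was not tested.

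**Figure D1:**
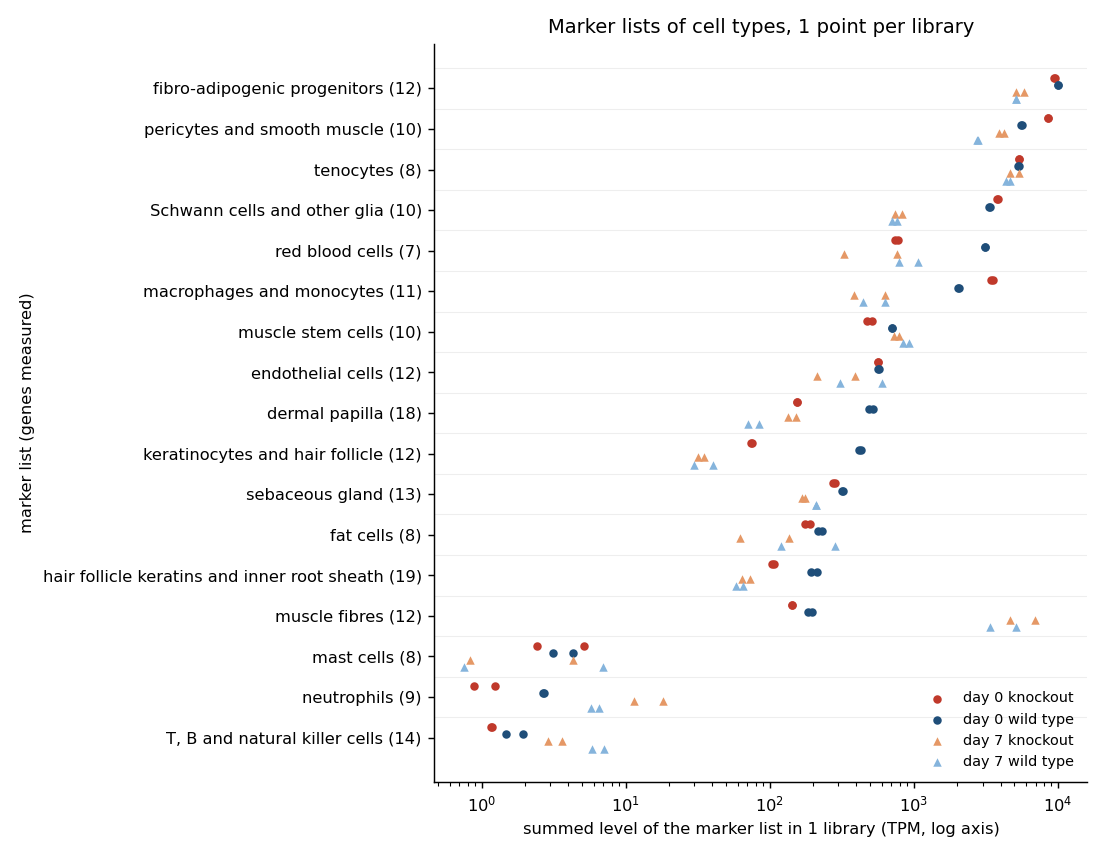
Summed TPM of each marker list on a log axis, 1 point per library, circles for day 0 and triangles for day 7, red shades for knockout and blue shades for wild type. At day 0 the knockout libraries lie to the right of wild type for pericytes and smooth muscle (8510 and 8564 against 5595 and 5605 TPM) and to the left for muscle stem cells, red blood cells, dermal papilla and keratinocytes.

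Markers of skin and hair follicle were lower in day 0 knockout, several keratins to 0 and other members by less. The keratinocyte list summed to 74.0 and 75.2 TPM in knockout and to 418 and 433 TPM in wild type. Of its 12 members 6 had 0 counts in both knockout libraries, so the sum left in knockout came from the other members. At day 7 the list summed to between 29.76 and 40.55 TPM per library. Krt17, a keratin of the hair follicle, had 0 counts in both knockout libraries and 98.9 and 111 CPM in wild type, at least 1008-fold lower in knockout against a floor of 3 counts per library. Krt14 and Krt15, keratins of the basal layer, were likewise at 0 in both knockout libraries and at 66.4 and 73.1 CPM and 87.1 and 93.2 CPM in wild type. Krt71 and Krt25, keratins of the inner root sheath that surrounds the growing hair, were at 0 in knockout and at 50.05 and 50.5 CPM and 19.6 and 22.7 CPM in wild type, and Krt28 stood at 0.252 and 0.304 CPM against 23.0 and 26.2 CPM. Of the 11 keratinocyte markers tested, 11 were lower in knockout, 7 of them still called without wild-type replicate 1. Krt10, a keratin of the outer skin layers, had a smaller step than the keratins above, from 6.45 and 6.92 CPM to 2.20 and 2.70 CPM (log2 fold change -1.45, SE 0.23). Of 12 tested sebaceous gland markers 6 were lower and none higher, with sums of 274 and 285 TPM against 316 and 322 TPM. Both wild-type libraries held these transcripts at similar levels, so a single library did not carry them. At day 7 Krt17 was below 1 CPM in either genotype (group means of 0.687 and 0.371 CPM).

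Genes known from the dermal papilla, the connective tissue core of the hair follicle, lay lower in knockout alongside the keratins. This list and that of the inner root sheath were drawn up after the values had been seen and are a description. The inner root sheath list summed to 104 and 108 TPM in knockout and to 194 and 212 TPM in wild type. Of its 19 members 7 had 0 counts in both knockout libraries and 1 in both wild-type libraries. At day 7 it summed to between 58.59 and 72.52 TPM per library. Crabp1, a binding protein for retinoic acid, stood at 5.54 and 4.87 CPM in knockout and at 51.6 and 57.4 CPM in wild type. Wif1, a secreted Wnt inhibitor, stood at 124 and 134 CPM against 414 and 447 CPM, and Sfrp2, another, at 2.64 and 3.50 CPM against 38.7 and 37.5 CPM. Of 18 such genes 13 were lower at day 0 and none higher, among them the Wnt ligand Wnt5a (2.20 and 2.59 against 15.9 and 15.2 CPM), the growth factor Fgf7 (4.50 and 4.37 against 20.8 and 20.8 CPM) and the protease Corin (0.881 and 0.532 against 13.9 and 15.6 CPM). Corin and Crabp1 went the other way at day 7, with a log2 fold change of 4.74 and 2.16 (edgeR adjusted p 0.000768 and 0.000178).

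Red cell genes were also lower in knockout. Hba-a1, an alpha globin, stood at 48.0 and 32.9 CPM in knockout against 259.6 and 255 CPM in wild type, and Slc4a1, the anion exchanger of the red cell membrane, at 0 counts in both knockout libraries against 3.75 and 4.35 CPM. All 7 red cell markers were called lower, 3 of them without knockout replicate 2. The globin genes are near-identical copies whose reads the counting could divide among them.

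A dependence on gene length ran through the comparison at day 0. Length was taken for each gene from the ratio of its estimated count to its TPM. Among 10 equal groups of the tested genes ordered by length, in the shortest the median log2 fold change was -0.35, with 37.6% of the genes called lower and 2.49% higher. In the longest it was 0.31, with 36.0% called higher and 7.33% lower. The medians rose through all 10 groups at day 0, while at day 7 they ran from 0.02 in the shortest to -0.08 in the longest. Both knockout libraries deviated from the mean of all 8 libraries in the same way (-0.11 and -0.21 in the shortest group, 0.22 and 0.21 in the longest), and both wild-type libraries the opposite way in the shortest group (0.14 and 0.17). When an offset for length was added to the fit, 5103 genes were called, 2324 higher (14.8%) and 2779 lower (17.7%), of which 4167 were called in the same direction without it. Each program list below is therefore given with its counts under that offset, and the cause of the pattern was not tested.

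**Figure D2:**
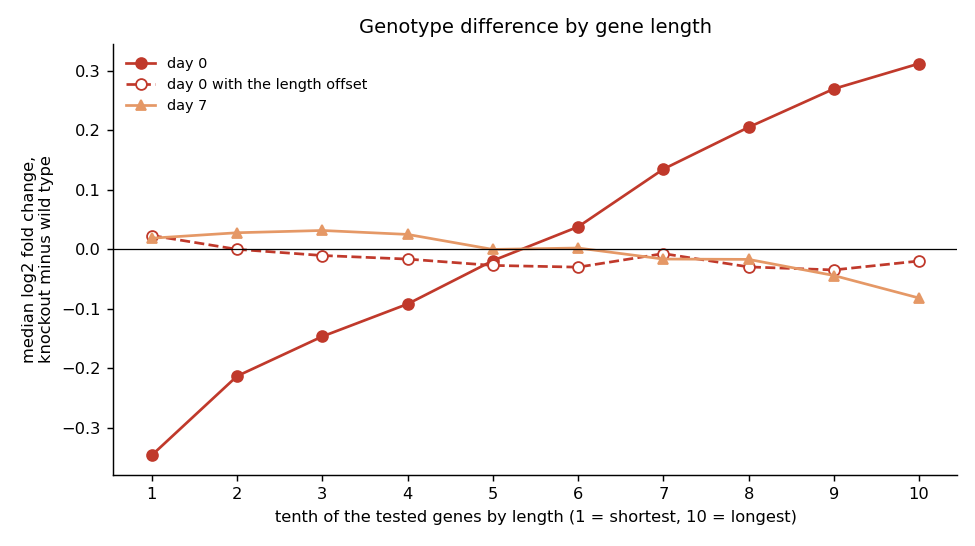
Median log2 fold change, knockout minus wild type, in 10 equal groups of the tested genes ordered by length, for day 0 (filled circles), day 0 with the length offset (open circles) and day 7 (triangles). The day 0 line climbs from -0.35 to 0.31, while the other lines stay between -0.08 and 0.03.

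Over all genes, 12 genes that rose and 12 that fell were named by the smallest adjusted p among well expressed genes with at least a doubling. Angptl4 (ENSMUSG00000002289, chromosome 17, 33773750 to 33781830), a secreted inhibitor of lipoprotein lipase made in fasting, rose from 62.0 and 59.3 CPM in wild type to 196 and 205 CPM in knockout (log2 fold change 1.73, SE 0.07, edgeR adjusted p 6.35e-06). Npas2 (chromosome 1, 39193731 to 39363236), a clock transcription factor that pairs with BMAL1, rose from 3.32 and 2.55 CPM to 21.6 and 22.4 CPM (log2 fold change 2.91, SE 0.15). Tbc1d1, a Rab regulator that AMPK and AKT phosphorylate and that controls glucose transporter traffic, rose from 64.5 and 59.5 CPM to 145 and 152 CPM. In each of these genes the knockout libraries lay above both wild-type libraries and close to each other. Adamtsl1, a secreted matrix protein, and Abca8a, a lipid transporter, rose by log2 fold changes of 1.53 and 1.14. Of the rest, myomesin (Myom1), which links the filaments of the sarcomere, rose by 1.5, the myosin phosphatase subunit Ppp1r12b by 1.52 and spectrin (Sptan1) by 1.2. Plxnb1, a semaphorin receptor, Klhl21, a ubiquitin ligase adaptor, and Spty2d1, a histone chaperone, rose by 1.31, 1.22 and 1.09.

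Among the genes that fell, Nr1d1 and Dbp of the clock, the keratins Krt28 and Krt17, and Crabp1 are described elsewhere in the text, and Sesn2 fell as given above. Lrrc17, a secreted leucine-rich repeat protein, stood at 14.2 and 15.7 CPM in knockout and 66.5 and 61.0 CPM in wild type (log2 fold change -2.09, SE 0.08, edgeR adjusted p 6.35e-06). C1qtnf3, a secreted C1q-like protein, stood at 26.8 and 25.7 CPM against 133 and 127 CPM. Enpp2, the enzyme autotaxin that makes lysophosphatidic acid, stood at 95.8 and 101 CPM against 277 and 275 CPM. Chrna1, the muscle subunit of the acetylcholine receptor, fell from 76.2 and 72.0 CPM to 25.2 and 25.9 CPM, and Lrrn1, a membrane protein with leucine-rich repeats, from 70.1 and 71.7 CPM to 24.9 and 25.3 CPM. Ccnb1, the cyclin of mitotic entry, fell from 12.3 and 14.3 CPM to 2.36 and 2.51 CPM. The groups did not overlap in any of the 24 genes, which the rule required, and 75.2% of all tested genes had no overlap between the genotypes.

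**Figure D3:**
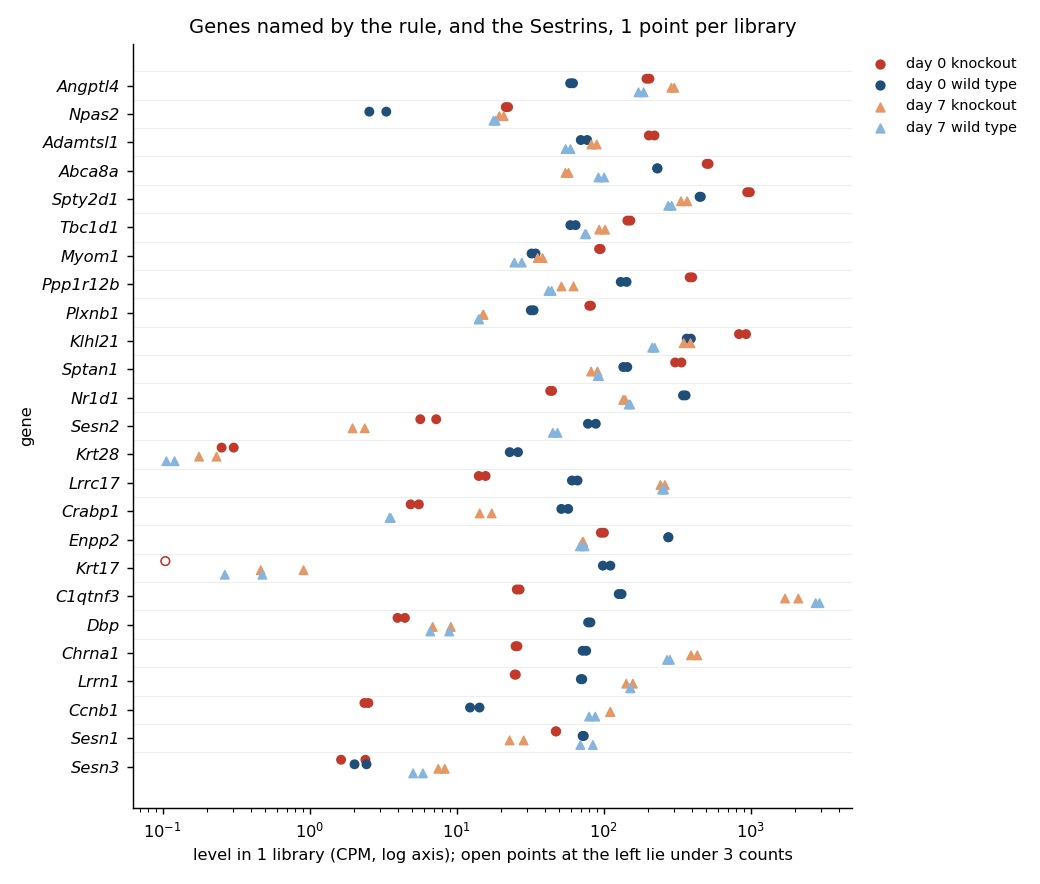
Level in CPM on a log axis of genes named by the rule and of the Sestrins, 1 point per library, circles for day 0 and triangles for day 7. Angptl4 lies at 196 and 205 CPM in day 0 knockout libraries against 62.0 and 59.3 CPM in wild type, and Nr1d1 at 43.4 and 44.7 CPM against 347 and 362 CPM.

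More genes of fatty acid oxidation were higher than lower. Of 39 members, 17 were higher, 2 lower and 20 not called in knockout, with a median log2 fold change of 0.28 against -0.005 over all tested genes. With the length offset 19 were higher and 3 lower. Cpt1a, the gate enzyme that lets long fatty acids into mitochondria, rose from 65.0 and 70.8 CPM in wild type to 175 and 181 CPM in knockout (log2 fold change 1.39, SE 0.09, edgeR adjusted p 3.38e-05). Ech1, an isomerase for unsaturated fatty acids, rose from 245 and 256 CPM to 426 and 446 CPM (log2 fold change 0.80, SE 0.06), and Acadl, the long-chain dehydrogenase, from 103 and 103 CPM to 149 and 155 CPM (log2 fold change 0.56, SE 0.06). The members that fell were Acsl3, which activates fatty acids for lipid droplets (log2 fold change -0.64, SE 0.08), and Etfa, an electron carrier (log2 fold change -0.21), whose call was lost without any 1 of the 4 day 0 libraries and with all 12 (edgeR adjusted p 0.131). At day 7 none of the 39 was higher and 1 was lower, and the genotype difference of 10 members was more positive at day 0 than at day 7, against 12% of all tested genes.

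The fasting response driven by PPAR and FOXO factors, which shares Cpt1a with the list above, had 15 of 42 members higher and 8 lower (13 and 9 with the length offset). Txnip, which limits glucose uptake, rose from 195 and 197 CPM to 340.1 and 322 CPM (log2 fold change 0.75, SE 0.07, edgeR adjusted p 9.57e-05). Members that fell included Ucp2, a mitochondrial carrier (34.7 and 32.9 CPM in knockout, against 63.6 and 69.2 CPM), and Gadd45a, a stress gene (log2 fold change -0.46). Glucocorticoid receptor targets, which overlap with the fasting list in Angptl4, had 11 of 29 members higher and 7 lower, and 11 and 6 with the offset. All 12 libraries gave 9 higher and 3 lower. Tsc22d3, the glucocorticoid-induced leucine zipper, rose from 336 and 339.7 CPM to 683 and 651 CPM (log2 fold change 0.98, SE 0.06, edgeR adjusted p 2.10e-05, but 0.0620 with all 12 libraries), and Fkbp5, a co-chaperone of the receptor, from 17.9 and 14.6 CPM to 33.4 and 33.7 CPM. Cdkn1c and Hsd11b1, a cell cycle inhibitor and the enzyme that regenerates active glucocorticoid, fell by 0.84 and by 0.89 on the log2 scale.

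In cholesterol synthesis more genes were lower than higher. Of 28 genes, 13 were lower and 1, the sterol sensor partner Scap, was higher, with a median log2 fold change of -0.40. With the length offset 16 were lower and none higher, Scap losing its call. Fdft1, squalene synthase, fell from 53.1 and 59.7 CPM to 27.7 and 25.2 CPM (log2 fold change -1.09, SE 0.14, edgeR adjusted p 0.000654). Msmo1 and Sc5d, late steps of the pathway, stood at 71.7 and 63.3 CPM against 113 and 109 CPM and at 49.8 and 45.9 CPM against 78.5 and 75.6 CPM. Fdps, which makes farnesyl diphosphate, had a log2 fold change of -0.63. At day 7, 1 member was higher and 1 lower, and for 12 of the 28 the genotype difference was more negative at day 0, against 12.8% of all tested genes. In fatty acid synthesis single genes moved far: Gpam, the first enzyme of triglyceride synthesis, rose from 1.43 and 2.13 CPM to 12.8 and 13.7 CPM, and Elovl4, an elongase for very long fatty acids, fell from 29.0 and 24.2 CPM to 4.47 and 4.34 CPM. Of its 24 tested members 3 were higher and 4 lower, or 2 and 7 with the offset and 1 and 3 with all 12 libraries.

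**Figure D4:**
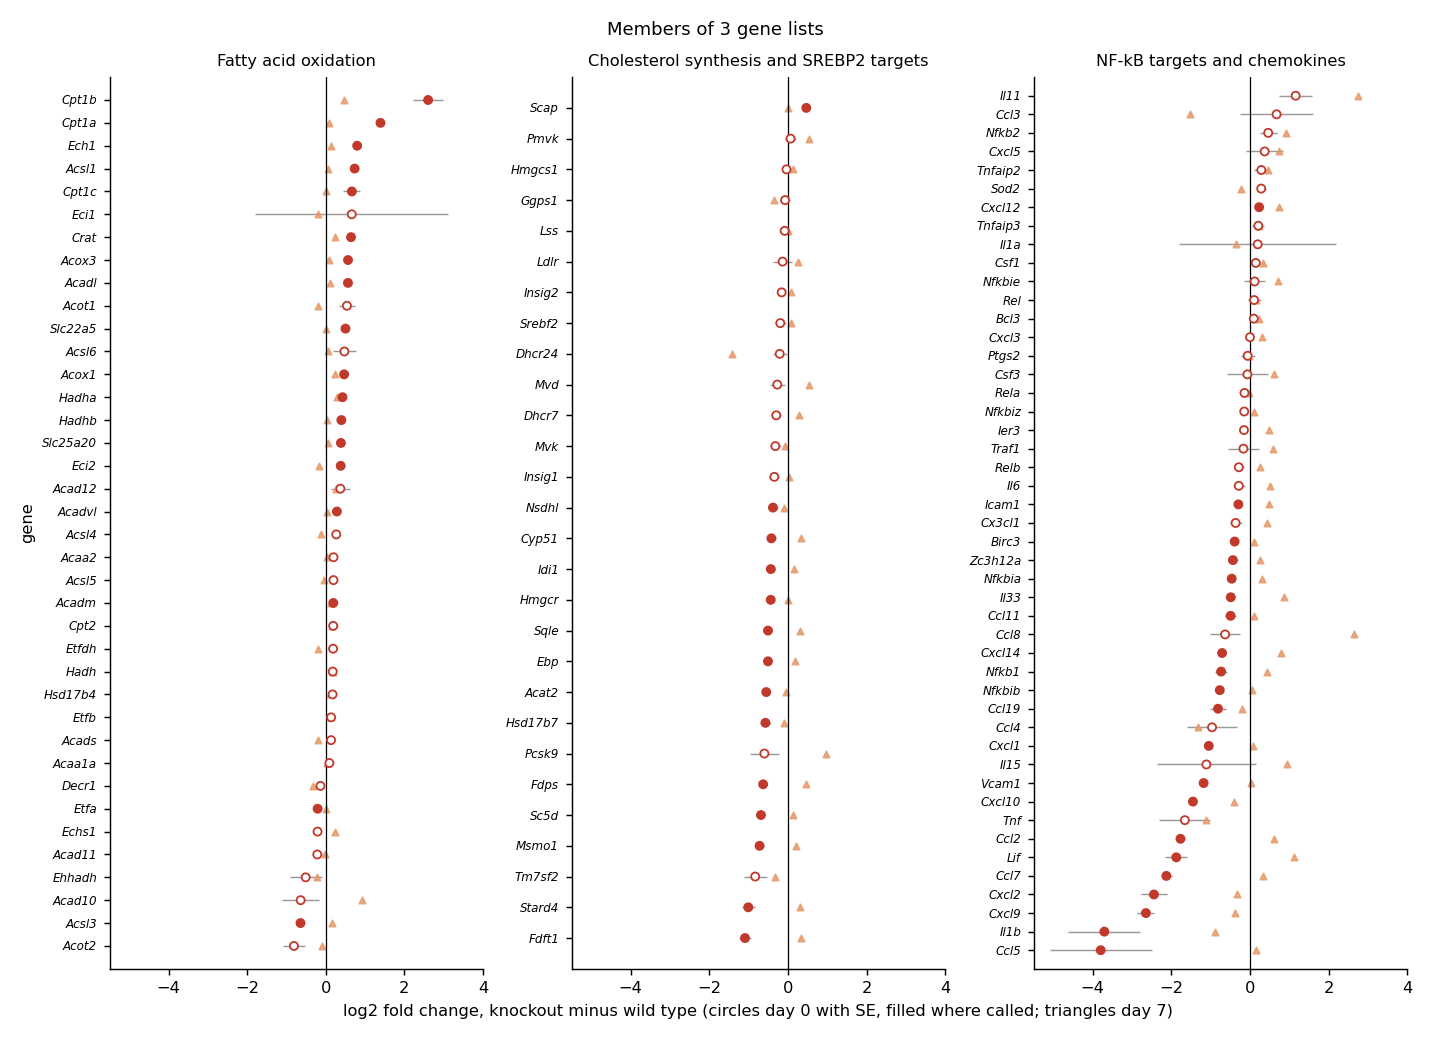
Log2 fold change, knockout minus wild type, of tested members of 3 lists, with circles and SE bars for day 0, filled where called, and triangles for day 7. Most filled circles lie right of 0 for fatty acid oxidation, and left of 0 for cholesterol synthesis (13 against 1) and for NF-kB targets (20 against 1).

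The enzymes that burn the products of fat and sugar gave a divided picture. In the tricarboxylic acid cycle 9 of 28 genes were higher and none lower, 12 and 2 with the length offset, 2 were lower by DESeq2, and 5 were higher without knockout replicate 1 or wild-type replicate 1, with 1 lower in the first case. Ogdh, the 2-oxoglutarate dehydrogenase, rose from 367 and 384 CPM to 646 and 678 CPM (log2 fold change 0.82, SE 0.10), and Pdha1, of pyruvate dehydrogenase, rose by 0.38. Respiratory chain subunits encoded in the nucleus showed the reverse, 44 of 74 lower and 4 higher, but with the length offset 25 were higher and 2 lower. The direction of this list therefore rests on the treatment of length, and its lower count was 12 to 18 without knockout replicate 2, wild-type replicate 1 or wild-type replicate 2. The higher count was 1 without either knockout library or wild-type replicate 1, and 2 without wild-type replicate 2. All 12 libraries gave 18 lower and 2 higher. Subunits encoded in mitochondrial DNA were lower in 6 of 12 and higher in none, with a median log2 fold change of -0.55. With the length offset 3 were lower and none higher, and the median was -0.24. Their lower count was 3 without knockout replicate 2 and 2 without wild-type replicate 1. Cox4i1 shows the change, with a log2 fold change of -0.37 (edgeR adjusted p 0.000920) that became 0.03 under the offset. Ndufb4 was lower under both settings (43.5 and 32.0 CPM in knockout, 74.7 and 69.7 CPM in wild type), and Ndufs1, a subunit of complex I, was higher under both (238 and 255 against 187 and 186 CPM). Mitochondrial ribosomal proteins went from 25 lower and 2 higher of 78 to 6 lower and 12 higher with the offset, and to 10 lower and none higher with all 12 libraries. Of these proteins 12 or 13 were lower and none higher without knockout replicate 2 or either wild-type library, and 1 was higher without knockout replicate 1. In glycolysis 6 of 31 were higher and 3 lower (7 and 2 with the offset), with Slc2a4, the insulin-responsive glucose transporter, at 231 and 247 CPM against 139 and 152 CPM, and hexokinase 2 (Hk2) at 15.5 and 12.8 CPM against 30.1 and 27.5 CPM. The count of higher glycolysis genes was 3 without knockout replicate 1 and 2 without knockout replicate 2 or wild-type replicate 1. That of lower ones was 1 without knockout replicate 2, and all 12 libraries gave 3 higher and 2 lower.

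The mTORC1 pathway itself, which Sestrins restrain, did not move in 1 direction. Of 47 GATOR, Rag, TSC and mTOR genes, 10 were higher and 9 lower (8 and 9 with the offset), with a median log2 fold change of -0.01. The count of lower genes was 5 without knockout replicate 2. Mtor, the kinase, rose from 17.1 and 17.6 CPM to 38.4 and 41.0 CPM (log2 fold change 1.19, SE 0.13, edgeR adjusted p 0.000285), and its partner Rptor from 12.6 and 14.4 CPM to 24.2 and 29.1 CPM. Rragd, a Rag GTPase that carries the amino acid signal, rose by 0.80, while Eif4ebp1, a translation repressor that mTORC1 switches off, fell from 38.6 and 35.1 CPM to 22.4 and 21.1 CPM. Rheb, the activator of mTORC1, fell by 0.46 on the log2 scale. AMPK and its upstream kinases had 6 of 11 genes higher and none lower (4 and 1 with the offset), led by the kinase LKB1 (Stk11) at 40.8 and 42.6 CPM against 24.1 and 27.3 CPM, a call lost with all 12 libraries (edgeR adjusted p 0.0553). Insulin and IGF pathway genes had 14 of 34 higher and 4 lower (10 and 8 with the offset, 9 higher without knockout replicate 2 or wild-type replicate 1, and 10 and 2 with all 12 libraries). In that list Igfbp5, an IGF binding protein, rose from 420.0 and 423 CPM to 731 and 732 CPM, and Igfbp3, another, fell from 74.1 and 72.4 CPM to 41.8 and 43.5 CPM.

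Amino acid and stress programs downstream of these kinases were mixed at day 0. Among 37 targets of ATF4, the transcription factor of the integrated stress response, 14 were lower and 9 higher (11 and 6 with the offset), against 11 higher and 2 lower at day 7, and for 16 the genotype difference was more negative at day 0 (12.8% over all genes). Pycr1, of proline synthesis, fell from 10.5 and 12.5 CPM to 2.39 and 2.62 CPM (log2 fold change -2.2, SE 0.14, edgeR adjusted p 3.41e-05), and Nupr1, a stress factor, from 164 and 169.8 CPM to 83.0 and 70.8 CPM. Of 33 amino acid transporters 8 were higher and 7 lower, but with the length offset 3 were higher and 8 lower. Slc38a1 and Slc38a4, which import neutral amino acids, fell from 16.7 and 18.0 CPM to 4.22 and 3.27 CPM and from 7.95 and 9.06 CPM to 0.598 and 1.06 CPM. Autophagy genes were 14 higher and 11 lower of 46, and 11 and 5 with the offset. Atg2b and Ambra1, which act early in autophagosome formation, rose by 1.44 and 1.11, and the cargo receptor Sqstm1 and the LC3 relative Gabarapl1 fell by 0.48 and by 0.68 on the log2 scale, Sqstm1 losing its call with all 12 libraries (edgeR adjusted p 0.104). Lysosomal genes were 12 higher and 17 lower of 60 (8 and 20 with the offset), with the protease Ctsk at 54.5 and 52.8 CPM against 98.8 and 97.5 CPM. Several of these counts were smaller without 1 day 0 library, as was the count over all tested genes. Without knockout replicate 2 the ATF4 list had 9 lower and 5 higher, the transporters 4 higher, the autophagy list 9 higher and 6 lower, and the lysosomal list 7 higher and 10 lower. The transporters had 5 higher without knockout replicate 1 and 4 without wild-type replicate 2. The autophagy list had 9 higher without wild-type replicate 1 and 7 lower without knockout replicate 1 or either wild-type library. The lysosomal list had 10 lower without wild-type replicate 1, and 11 lower and 7 higher without wild-type replicate 2. With all 12 libraries the higher and lower counts were 5 and 11 for ATF4, 4 and 6 for the transporters, 10 and 7 for autophagy, and 10 and 9 for the lysosome.

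More genes of protein synthesis were lower than higher. Cytosolic ribosomal proteins were lower in 78 of 80 tested members and higher in none, 68 with the offset, and are listed here only as context for the factors that work with them. Of 48 initiation and elongation factors, 28 were lower and 6 higher, and 18 and 4 with the length offset. Eef1a1, the elongation factor that delivers tRNA, fell from 1881 and 1867 CPM to 1167 and 1184 CPM (log2 fold change -0.67, SE 0.05, edgeR adjusted p 4.94e-05), and Eif3f, an initiation subunit, from 65.4 and 61.1 CPM to 33.5 and 31.6 CPM. The scaffold Eif4g1 rose from 103 and 110.4 CPM to 179 and 176 CPM. Splicing factors were 20 lower and 4 higher of 56 (18 and 4 with the offset, and 10 lower without knockout replicate 2 or wild-type replicate 1), with U2af1, which reads the end of the intron, at 24 and 20.8 CPM against 45.2 and 45.7 CPM. Proteasome subunits were 26 lower and 2 higher of 44, 12 and 4 with the offset, and 17 lower without wild-type replicate 2. The higher count was 0 without knockout replicate 2 or wild-type replicate 1, and 1 without wild-type replicate 2 or with all 12 libraries. Psma4 and Psma5, subunits of its core, were lower under both settings, at 77.9 and 74.1 CPM against 118 and 118 CPM and at 82.9 and 82.5 CPM against 118 and 118 CPM. Nucleolar genes of ribosome production were 19 lower and 10 higher of 52 (12 and 8 with the offset), and between 7 and 11 lower without any 1 of the 4 day 0 libraries, with 5 higher without knockout replicate 2 or wild-type replicate 2. The 4 higher splicing factors were 1 or 2 without any 1 day 0 library. With all 12 libraries 13 splicing factors were lower and 1 higher, and 9 nucleolar genes were lower and 8 higher.

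Among stress programs, NRF2 targets and heat shock genes had more members lower than higher at day 0. NRF2 targets, which make and use glutathione and thioredoxin, had 24 of 43 tested members lower and 3 higher (17 and 4 with the offset), while at day 7, 10 were higher and none lower. Hmox1, the haem-degrading enzyme, stood at 166 and 169 CPM in knockout and at 324 and 335 CPM in wild type at day 0 (log2 fold change -0.97, SE 0.07, edgeR adjusted p 5.23e-05), and was higher in knockout at day 7 (log2 fold change 0.93, edgeR adjusted p 0.000272). Its day 0 call was lost with all 12 libraries (edgeR adjusted p 0.272). Mgst1 and Gstm1, glutathione transferases, fell by 1.12 and by 0.55, and for 27 of the 43 members the genotype difference was more negative at day 0 (12.8% over all genes). Heat shock genes were 12 lower and 3 higher of 35 (15 and 3 with the offset), with the mitochondrial co-chaperonin Hspe1 at 44.2 and 39.2 CPM against 85.3 and 83.3 CPM, and 7 lower without knockout replicate 2 or wild-type replicate 2. The higher count was 0 or 1 without any 1 day 0 library, and all 12 libraries gave 5 lower and 2 higher. Genes of the unfolded protein response in the endoplasmic reticulum were 6 higher and 5 lower of 30 (4 and 7 with the offset), with 3 lower without knockout replicate 2, 3 of each without wild-type replicate 2, and 5 and 3 with all 12 libraries. Of 35 p53 targets 11 were lower, Sesn1 and Sesn2 among them, and 4 higher (8 and 3 with the offset), and 2 were higher without wild-type replicate 2. Targets called with all 12 libraries were 7 lower, without Sesn1 and Sesn2, and 2 higher. Trp53 itself fell from 169 and 169.5 CPM to 107 and 102 CPM, and the cell cycle inhibitor Cdkn1a rose from 1057 and 1141 CPM to 1377 and 1402 CPM.

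More inflammatory genes were lower than higher in uninjured knockout cells. Of 47 tested NF-kB targets, chemokines and cytokines, 20 were lower and 1, Cxcl12, was higher, a call lost without any 1 day 0 library and with all 12 libraries (edgeR adjusted p 0.117), with a median log2 fold change of -0.37, and the counts were 20 and 3 with the length offset. Without knockout replicate 1 or wild-type replicate 1 the lower count was 13. Ccl2, which attracts monocytes, stood at 16.8 and 13.7 CPM in knockout and at 53.9 and 50.4 CPM in wild type (log2 fold change -1.77, SE 0.12, edgeR adjusted p 3.74e-05). Ccl7, a close relative, stood at 6.67 and 5.44 CPM against 27 and 26.1 CPM, and Cxcl10, a chemokine for T cells, at 22.6 and 22.5 CPM against 61.7 and 61.6 CPM. At day 7 the same list had 11 members higher and 1, Cxcl10, lower, and for 22 of the 47 the genotype difference was more negative at day 0 (12.8% over all genes). Interferon-stimulated genes did not follow: 9 of 44 were higher and 8 lower (7 and 4 with the offset), with Usp18 at 18.0 and 18.7 CPM against 8.96 and 7.53 CPM and B2m, of the class I complex, at 322 and 290.5 CPM against 607 and 564 CPM. Interferon counts were 4 higher without knockout replicate 2 or either wild-type library, and 4 or 5 lower without any 1 day 0 library. With all 12 libraries 1 was higher and 1 lower, and Usp18 and B2m lost their calls (edgeR adjusted p 0.154 and 0.145). Among leukocyte markers, Lyz2 was abundant and lay higher in knockout, as given above, while Csf1r, C1qa, Tyrobp, Cd3e and Ly6g were at or near 0 in all 4 libraries.

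Immediate early genes, which dissociation of a tissue is known to switch on, were 13 higher and 6 lower of 40, and 14 and 13 with the offset. Nr4a2, a nuclear receptor of this class, rose from 1109.6 and 1136 CPM to 1828 and 1868 CPM (log2 fold change 0.72, SE 0.06, edgeR adjusted p 0.000105), and Egr1 rose from 2871 and 2977 CPM to 4156 and 3956 CPM. Jund and Maff fell by 0.68 and by 0.65 on the log2 scale. Whether handling of the tissue moved with genotype was not tested.

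Identity genes of satellite cells were lower in larger number than higher. Of 39 genes of identity and quiescence, 19 were lower and 6 higher, and 21 and 4 with the length offset, with 3 higher without knockout replicate 2, without wild-type replicate 2 or with all 12 libraries. Beside Pax7, Vcam1 and Myf5, the cadherin Cdh15 stood at 75.0 and 79.0 CPM in knockout against 162 and 179 CPM in wild type (log2 fold change -1.14, SE 0.09), and Chrdl2, a BMP antagonist, at 77.1 and 70.6 CPM against 157 and 158 CPM. Myod1, the factor of activated myoblasts, went the other way, at 161 and 179 CPM against 111 and 131 CPM (log2 fold change 0.49, SE 0.10, edgeR adjusted p 0.00449). Genes of commitment and of the sarcomere were 17 lower and 7 higher of 42 (10 and 3 with the length offset), with 8 to 11 lower without any 1 day 0 library, and 3 or 4 higher without knockout replicate 1 or either wild-type library. Myog, which commits cells to differentiate, fell from 89.6 and 95.4 CPM to 35.9 and 32.6 CPM (log2 fold change -1.43, SE 0.08, edgeR adjusted p 2.16e-05), and cardiac actin (Actc1), made by young muscle cells, from 25.9 and 27.6 CPM to 12.8 and 11.8 CPM. With all 12 libraries 13 of the list were lower and 3 higher, and Myod1, Myog and Actc1 were not called (edgeR adjusted p 0.160, 0.0774 and 0.154). At day 7 this list was 10 higher and 1 lower, and for 20 genes the genotype difference was more negative at day 0 (12.8% over all genes). Markers of muscle fibres summed to 143 TPM in each knockout library and to 184 and 195 TPM in wild type at day 0.

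Signals that surround the satellite cell differed by gene. Among Notch genes, the receptors Notch2 and Notch3 rose from 27.1 and 26.7 CPM to 60.2 and 61.5 CPM and from 321 and 337 CPM to 636 and 695 CPM, and the target Hey1 fell from 59.4 and 61.4 CPM to 33.8 and 32.8 CPM. Notch3 is also a marker of the pericyte list. The 31 Notch genes were 7 higher and 8 lower (4 and 7 with the offset), and their median log2 fold change was 0.11, or -0.04 with the offset. Of 41 Wnt genes 9 were higher and 12 lower (2 and 16 with the offset), with Wnt5a, Sfrp2 and Wif1 of the hair follicle description above among those lower. In the TGF-beta and BMP list, 11 of 53 were higher and 17 lower (5 and 25 with the offset). Tgfb3 rose from 282 and 294 CPM to 550.3 and 551 CPM, and Mstn, myostatin, the inhibitor of muscle growth, stood at 1.07 and 0.685 CPM against 19 and 16.3 CPM (log2 fold change -4.31, SE 0.49, edgeR adjusted p 0.000532). Growth factor genes were 11 higher and 16 lower of 47 (7 and 18 with the offset), with Fgf1 at 197 and 199.9 CPM against 108 and 113 CPM and Fgfr4, a receptor of satellite cells, at 167 and 176 CPM against 243 and 256 CPM. Without any 1 of the 4 day 0 libraries, the lower counts were 3 or 4 for Notch, 10 or 11 for TGF-beta and BMP, and 9 or 10 for growth factors, and the higher count for Wnt was 2 to 5. Without wild-type replicate 2, 7 TGF-beta and BMP genes and 7 growth factor genes were higher, and 6 of the latter without wild-type replicate 1. With all 12 libraries the higher and lower counts were 5 and 4 for Notch, 5 and 9 for Wnt, 6 and 11 for TGF-beta and BMP, and 8 and 10 for growth factors, and Notch3 lost its call (edgeR adjusted p 0.0782).

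Of 36 integrin, laminin and dystroglycan genes, 22 were higher and 5 lower, and 11 and 5 with the length offset. Higher genes numbered 12 to 14 without knockout replicate 2, wild-type replicate 1 or wild-type replicate 2, and lower ones 3 without knockout replicate 2 or wild-type replicate 1, and 2 with all 12 libraries. Lama5, a laminin chain, rose from 65.9 and 71.4 CPM to 152 and 172 CPM under both settings (log2 fold change 1.24 and 1.2) but was not called with all 12 libraries (edgeR adjusted p 0.0529). Itga8, an integrin of contractile cells, rose from 161 and 151 CPM to 276 and 293 CPM. Collagens and other matrix proteins were 22 lower and 17 higher of 53, 25 and 7 with the offset, and 11 higher without wild-type replicate 1. Col1a1, the main fibrillar collagen, fell from 7242 and 7654 CPM to 2309 and 2669 CPM (log2 fold change -1.58, SE 0.08, edgeR adjusted p 1.52e-05), and Sparc, a collagen binding protein, from 3388 and 3327 CPM to 1644 and 1574 CPM. Thbs1, thrombospondin, and Hspg2, perlecan, rose by log2 fold changes of 1.35 and 0.92. The tendon factor Scx, a regulator of Col1a1 in tendon, fell from 88.8 and 109 CPM to 26.0 and 25.8 CPM, and 4 of the 8 tenocyte markers were lower and 1 higher, or 2 lower and none higher with all 12 libraries, the higher one also lost without knockout replicate 2 or wild-type replicate 1.

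Genes of the actin cytoskeleton, many of them targets of SRF, were 17 higher and 13 lower of 48, 19 and 11 with the offset, and 8 lower without wild-type replicate 1. All 12 libraries gave 11 higher and 8 lower. Flna, filamin A, rose from 1453 and 1478 CPM to 5317 and 5610.3 CPM (log2 fold change 1.90, SE 0.13, edgeR adjusted p 5.77e-05), and Vcl, vinculin, from 249 and 243 CPM to 507 and 554 CPM. Tmsb4x, a thymosin that binds actin monomers, fell from 1519.6 and 1491 CPM to 911 and 764 CPM, and Stmn1, stathmin, which binds tubulin, from 178 and 182 CPM to 106 and 103 CPM. Smooth muscle genes of the pericyte list, Acta2 and Myh11, rose in the same libraries, and their part in the values of this list was not tested. Chromatin enzymes were 15 higher and 8 lower of 57, or 10 and 11 with the offset, 9 higher without knockout replicate 1, 9 and 4 with all 12 libraries, and 3 or 4 lower without knockout replicate 2 or wild-type replicate 1, with the demethylase Kdm5c at 69.1 and 68.5 CPM against 34.9 and 34.2 CPM and Uhrf1, which copies DNA methylation in dividing cells, at 1.32 and 1.45 CPM against 6.68 and 6.73 CPM.

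**Figure D5:**
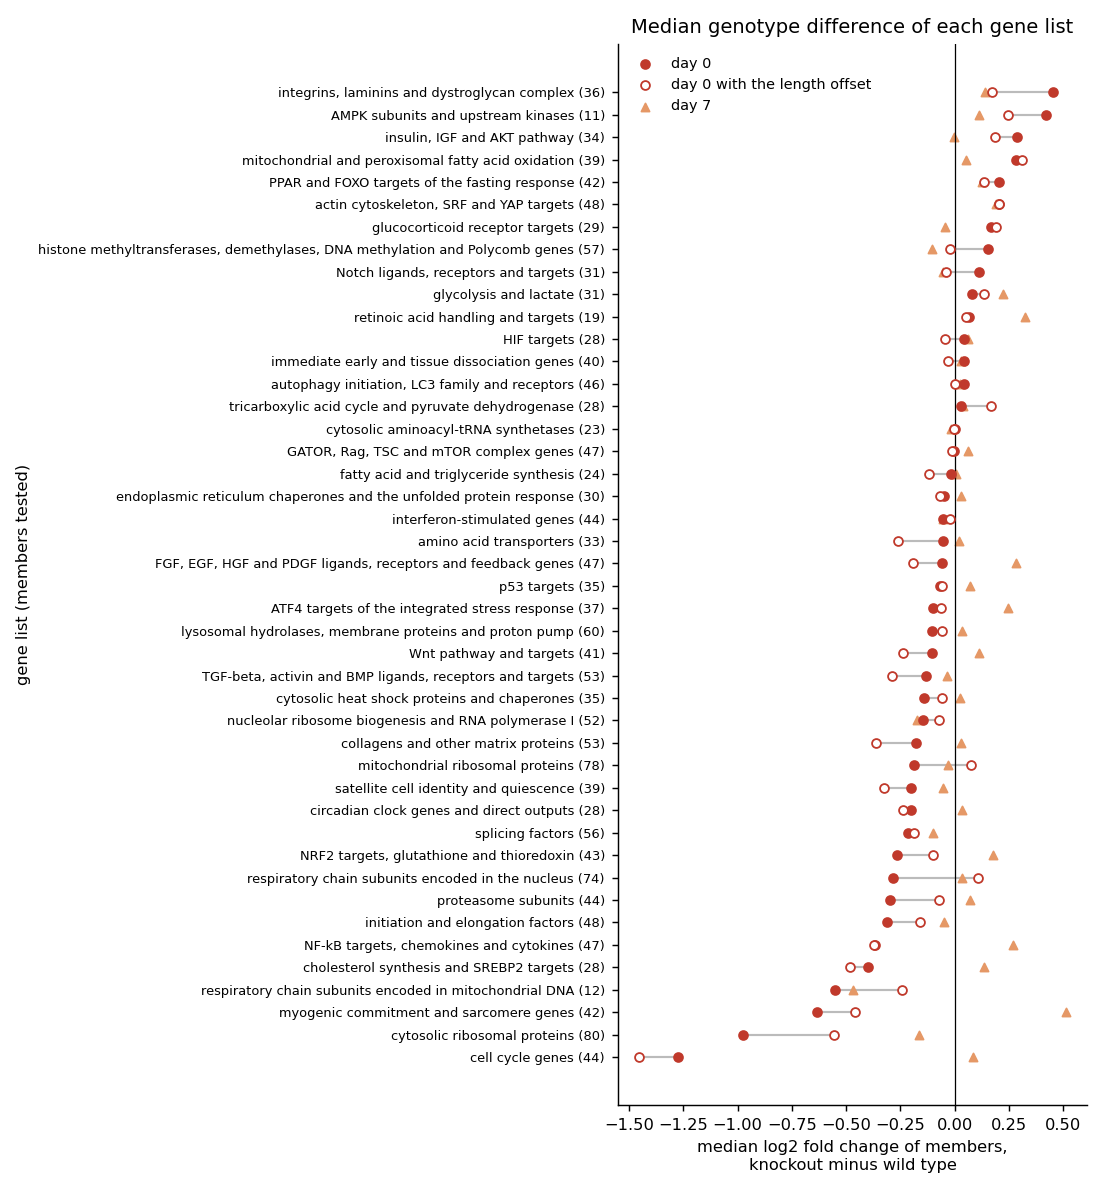
Median log2 fold change, knockout minus wild type, of the tested members of 44 gene lists at day 0 (filled circles), at day 0 with the length offset (open circles, joined by a line) and at day 7 (triangles). Nuclear respiratory chain subunits shift under the offset from -0.29 to 0.11, while fatty acid oxidation stays at 0.28 and 0.31.

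The clock bears on when the animals were sampled, since its genes cycle over the day and the labels give no hour. Nr1d1 (chromosome 11, 98767932 to 98775333), the repressor REV-ERB alpha, stood at 43.4 and 44.7 CPM in knockout and at 347 and 362 CPM in wild type (log2 fold change -3.01, SE 0.06, edgeR adjusted p 1.18e-07), the smallest adjusted p of the rule's genes. Dbp, an output factor, stood at 3.96 and 4.45 CPM against 78.5 and 81.4 CPM, and Ciart, a repressor of CLOCK and BMAL1, at 6.17 and 6.50 CPM against 22 and 19.8 CPM. Arntl, the gene of BMAL1, which REV-ERB represses, stood at 61.4 and 42.8 CPM against 26.8 and 24.5 CPM (edgeR adjusted p 0.0505 with all 12 libraries, where its call was lost), and Cry1 at 110.3 and 101 CPM against 78.0 and 77.6 CPM. Per1 did not move with them (39.3 and 41.9 against 38.1 and 41.4 CPM). Cry1 lost its call with an offset for length and GC content (edgeR adjusted p 0.0559). Of 28 clock genes 9 were higher and 11 lower, 7 and 12 with the offset, and the higher count was 4 without knockout replicate 2 and 5 without wild-type replicate 1. The counts were 6 and 7 with all 12 libraries. At day 7 Nr1d1 and Dbp showed no call (log2 fold changes -0.12 and 0.05), and their genotype difference differed between the days (edgeR adjusted p 2.07e-06 and 6.35e-05), in a test that includes the day 0 values by which the rule chose both genes. Whether the hour of collection moved with genotype cannot be read from the labels, and the part of collection time in the fasting, glucocorticoid and cholesterol genes above was not tested.

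Cell cycle genes were 30 lower and 1 higher of 44 (31 and 1 with the offset), with a median log2 fold change of -1.27. Without wild-type replicate 1 the higher count was 2, and with all 12 libraries none were higher and 22 lower. Top2a, which untangles DNA in dividing cells, stood at 2.42 and 2.62 CPM in knockout and at 7.62 and 7.06 CPM in wild type, and Ccnb2, a mitotic cyclin, at 2.45 and 1.86 CPM against 9.16 and 9.36 CPM. At day 7 the group means in knockout and wild type were 62.1 and 56.9 CPM for Ccnb2, and 118 and 125 CPM for Top2a, and neither was called there. Dividing cells of any type share these genes, and the part of hair follicle cells, whose markers fell in the same libraries, was not tested.

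Sequences before the start sites of 4 genes that fell are shown with motifs of factors known to act on such genes. These are E-boxes for the clock, CHR and CCAAT boxes for the cell cycle, and the AP-1 site for inflammatory genes. No NF-kB motif was sought, although the inflammatory list holds NF-kB targets. The 150 bases before the RefSeq start (GRCm38.p6) are given 5′ to 3′ on the strand of the gene, with motif letters in capitals. Each sequence was searched on either strand for the motif of its own group only, the letters CACGTG of the E-box in Ciart, the letters TTTGAA of the CHR and the letters CCAAT in the cell cycle genes, and the letters TGANTCA of AP-1 in Cxcl10, and other motifs are left in lower case. Cdk1 was chosen for display after its values had been seen (1.70 and 2.02 CPM in knockout, 5.83 and 4.93 CPM in wild type). In these 150 bases Cdk1 holds 2 CHR and 2 CCAAT matches, Ccnb2 holds 3 CCAAT matches and no CHR match, and Top2a, not printed, holds 1 CHR and 4 CCAAT matches. The 4 printed genes lie on the minus strand, Ciart at chr3:95882229-95882378, Cdk1, the mitotic kinase, at chr10:69352913-69353062, Ccnb2 at chr9:70421555-70421704 and Cxcl10 at chr5:92348890-92349039.
Ciart: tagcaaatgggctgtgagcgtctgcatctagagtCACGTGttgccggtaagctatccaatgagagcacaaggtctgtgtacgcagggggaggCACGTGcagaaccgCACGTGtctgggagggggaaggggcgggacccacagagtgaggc
Cdk1: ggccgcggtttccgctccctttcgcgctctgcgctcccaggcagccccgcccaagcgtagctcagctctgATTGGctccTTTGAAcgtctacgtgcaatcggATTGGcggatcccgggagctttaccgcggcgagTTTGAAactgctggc
Ccnb2: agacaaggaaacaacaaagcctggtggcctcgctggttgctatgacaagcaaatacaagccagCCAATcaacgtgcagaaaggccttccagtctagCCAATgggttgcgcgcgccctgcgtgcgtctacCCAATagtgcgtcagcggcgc
Cxcl10: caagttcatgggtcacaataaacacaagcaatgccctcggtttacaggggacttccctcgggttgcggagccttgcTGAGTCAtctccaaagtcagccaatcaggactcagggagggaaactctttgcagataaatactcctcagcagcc

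Within 250 bases before and 50 after the start, the E-box was found in 11.2% of the 11204 tested genes with a matched promoter, in 11% of those higher and in 11.8% of those lower in knockout. AP-1 letters were in 6.64% of tested genes, 6.29% of those higher and 7.51% of those lower. CHR letters were in 14.3%, 12.5% and 15.6%, and CCAAT in 42.3%, 40.7% and 43.4%. Among the 667 promoters of genes called lower by at least 1 on the log2 scale, AP-1 was in 10.3%, CHR in 18.1%, CCAAT in 45.6% and the E-box in 10.8%. Among the 519 of genes called higher by as much, the shares were 7.13%, 12.9%, 40.7% and 8.09%. These shares were not tested. Over all 27025 promoters the E-box was in 8.09%, AP-1 in 8.97%, CHR in 20.2% and CCAAT in 41.1%. A match of letters is a description and not a bound site.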

How the data were processed

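The authors deposited estimated counts per gene, made with kallisto 0.46.1 on mm10 and GRCm38.p6 per the submitters' processing notes, TPM for the same 30154 genes, and regularised log2 values that the authors corrected for a batch not named in the sources used here. Per the labels, cDNA was made with SMART-Seq v4 from RNA of RIN above 8, and Nextera XT libraries were read with 76 base single-end reads. Kits of this kind do not mark strand, so reads of overlapping antisense genes cannot be told apart.

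Estimated counts were rounded and filtered with filterByExpr of edgeR 4.0.16, leaving 15672 genes. TMM scaling and the robust quasi-likelihood test were fitted on the 8 libraries of days 0 and 7 (4 residual degrees of freedom), with Benjamini-Hochberg adjustment over all genes. The day 21 libraries entered only as an alternative, since Sesn2 goes against 2 of their labels. The genes named over all genes were 12 in each direction, taken by smallest adjusted p, with a log2 fold change of at least 1, no overlap of libraries and at least 10 CPM in the higher genotype, leaving out gene models named Gm or Rik; lists give up to 4 genes each way at 5 CPM or more, and clock and marker genes may be named at any value. Floors of 3 counts and all errors cover these libraries only. Members and lists were chosen with earlier results of these data known, so no list carries a p-value. Genes that are counted but not reported here are left out of the text and figures. The fit was also run on simulated data, with an outcome that is not given here. Length came from the ratio of counts to TPM, and its offset is a smooth curve of span 0.3, chosen after seeing the data, as was one with GC content from GENCODE M21 (99.3% of genes had a value). Alternatives used DESeq2 1.42.0, limma 3.58.1 on log2 TPM plus 1 or 0.1, the batch-corrected log2 values, other filters and scalings, a replicate block, and each library left out. Promoters are RefSeq's, GRCm38.p6, with 11204 of 15576 gene symbols matched.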

Additional observations from a re-analysis of the deposited data

Results flagged for a closer look

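For 25 of the 26 genes named over all genes, Sestrins included, the genotype difference at day 0 differed from that at day 7 by the edgeR interaction test, against 24.8% of all tested genes. Sesn3 was the exception. Apart from Sesn1 and Sesn3 these genes were chosen for small p-values, large folds and no overlap at day 0. The test includes those day 0 values, so the choice itself raises the count, and the count supports nothing. The values below are the day 0 minus the day 7 difference in log2 CPM. Of the genes that rose, the difference was 1.01 for Angptl4, 2.75 for Npas2, 0.94 for Adamtsl1, 1.91 for Abca8a, 0.77 for Spty2d1, 0.89 for Tbc1d1, 1.00 for Myom1, 1.12 for Ppp1r12b, 1.21 for Plxnb1, 0.45 for Klhl21 and 1.29 for Sptan1. Abca8a was lower in knockout at day 7, with a log2 fold change of -0.78.

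Of the genes that fell, it was -2.89 for Nr1d1, -7.27 for Krt28, -2.08 for Lrrc17, -5.55 for Crabp1, -1.50 for Enpp2, -1.73 for C1qtnf3, -4.30 for Dbp, -2.12 for Chrna1, -1.48 for Lrrn1 and -2.86 for Ccnb1. For Krt17, at 0 counts in day 0 knockout, the fitted -15.76 depends on the prior count and is no measured size. Chrna1, Crabp1 and Ccnb1 were higher in knockout at day 7 (log2 fold changes 0.58, 2.16 and 0.41). Sesn2 and Sesn1 fell further at day 7 than at day 0, with differences of 0.73 and 0.96. Of the 318 genes that the rule names from the lists, 219 had a called difference between the days, a count that is likewise raised by the choice on day 0 values and is to be set beside the 24.8% only with that in view.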

How the results depend on the processing

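Day 0 calls numbered 6091 and ranged from 3522 to 6916 when 1 library was left out, which leaves an arm of 1 library assumed to vary like the other groups, and 1704 had at least a doubling. Other settings gave 4356 (all 12 libraries) to 7317 (day 0 libraries alone). Day 7 calls (1169) ranged from 406 to 1792 without 1 library and were 280 with all 12 libraries, 1210 with the smooth length offset used in the text, 758 with an offset of each gene's own length in each library, 686 by limma on log2 TPM plus 1, 433 without its filter, 641 with 0.1 added, 595 on batch-corrected log2 values and 211 with at least a doubling. Calls of a difference between the days (3887) ranged from 2183 to 4404 without 1 library and were 2141 with all 12 libraries, 2299 by limma on log2 TPM plus 1 without a filter and 1488 with at least a doubling. With the replicate block, day 0, day 7 and the difference between days gave 5599, 877 and 3341 calls. Deviations of libraries sharing a number correlated at -0.15 to 0.04. With 2 libraries a group these values cannot show whether such libraries shared a batch or preparation, which was not tested.

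Sesn2 aside, the genes named over all genes kept their calls and direction in each setting that tested them. Sesn2 and Sesn1 lost theirs with all 12 libraries (edgeR adjusted p 0.0580 and 0.144), and Sesn3, not called in the main setting, ranged from -0.44 to 0.11 without 1 library. Of 44 lists, 7 medians changed sign with the length offset, and in 24 a count of calls moved over 1.5 times. Of 142 called genes named in the text, 5 lost the call without at least 1 day 0 library (Cxcl12, Etfa, Gsn, Lyz2 and Rgs5), 20 lost it with all 12 libraries (those 5, Sesn1, Sesn2, Actc1, Arntl, B2m, Dcn, Hmox1, Lama5, Myod1, Myog, Notch3, Sqstm1, Stk11, Tsc22d3 and Usp18), 4 with the length offset (Cox4i1, Etfa, Gsn and Scap) and none by DESeq2, and 1, Cox4i1, changed sign with the offset. With the offset for length and GC content 5 lost the call (Cox4i1, Cry1, Etfa, Gsn and Scap), and Etfa changed sign. The cause was not tested. With 2 libraries a group, depth limits the genes near 0.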
